A study of Homo sapiens with 12 samples.

Results

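The comparison described here sets MCF10-A cells that had been arrested by p16 and treated with Torin2 against cells that expressed mVenus alone, and asks which transcripts still differed from the control after inhibition of mTOR. MCF10-A is a line of human mammary epithelium that grows without forming tumours. The medium held horse serum, EGF, insulin, hydrocortisone and cholera toxin. All cultures carried a doxycycline-inducible transgene, received 50 ng/ml doxycycline and were harvested after 5 days. The control group expressed mVenus, a yellow fluorescent protein, and its fresh medium held the solvent DMSO. The treated group expressed an mVenus-p16 fusion and was given 100 nM Torin2 from 24 hours after the start of induction. A p16 group with DMSO and a p21 group complete the series, and the p16 group is used here for values placed beside the main comparison. The libraries were chosen by their titles, which gave 3 of p16 with Torin2 and 3 of mVenus, 6 of 12 in all. Of 57133 gene names in the count files, 14504 had enough counts to be tested. No culture of mVenus cells received Torin2, so p16 and Torin2 cannot be told apart in the main comparison. Each culture is called a biological replicate in the series description, and how the cultures were separated is not given, so p-values measure the spread between these cultures of 1 line.

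The protein p16 binds the cyclin-dependent kinases CDK4 and CDK6 and keeps the retinoblastoma protein active, which holds E2F factors in check and shuts down genes of S phase and mitosis. Many mitotic genes carry a CHR element through which the DREAM complex represses them outside the cycle, and many replication genes carry E2F sites. The kinase mTOR couples nutrients and growth factors to translation, lipid synthesis and autophagy. Messenger RNAs that start with a cytosine followed by a run of pyrimidines, the TOP messages, encode ribosomal proteins and translation factors and are the transcripts whose translation depends most on mTOR complex 1. Torin2 is an ATP-competitive inhibitor of the kinase and acts on both mTOR complexes.

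Sequences at the starts of genes from some of the lists described below are shown first. All are from RefSeq on GRCh38.p14, and the offsets are counted from the annotated RNA start. In the first set, the 60 bases before the start of 3 mitotic genes, capitals mark the CHR element TTTGAA. These lie at chr10:128126424-128126483 on the minus strand for MKI67, at chr15:59105086-59105145 on the plus strand for CCNB2 and at chr16:23678829-23678888 on the plus strand for PLK1.
MKI67: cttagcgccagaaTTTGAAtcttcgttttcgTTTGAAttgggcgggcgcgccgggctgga
CCNB2: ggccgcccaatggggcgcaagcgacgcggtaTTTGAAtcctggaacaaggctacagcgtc
PLK1: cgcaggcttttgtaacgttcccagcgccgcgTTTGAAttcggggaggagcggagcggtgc
In the second set, capitals mark E2F sites, searched on both strands as TTCCCGC, with an alternative form TTCGCGC, a further form TTGCCGC and lastly the form TTGGCGC, which can overlap each other. The stretches lie upstream of MCM6 (chr2:135876519-135876603, minus strand), a subunit of the replicative helicase, and of E2F1 (chr20:33686386-33686435, minus strand).
MCM6: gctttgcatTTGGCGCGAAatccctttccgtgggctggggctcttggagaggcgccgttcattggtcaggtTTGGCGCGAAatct
E2F1: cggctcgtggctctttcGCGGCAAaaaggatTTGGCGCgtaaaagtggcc
In the third set, capitals mark the interferon-stimulated response element, searched as GAAA, any 2 bases and GAAA on both strands, upstream of IFIT1 (chr10:89392498-89392547, plus strand), IFI6 (chr1:27672268-27672357, minus strand) and ISG15 (chr1:1013372-1013421, plus strand).
IFIT1: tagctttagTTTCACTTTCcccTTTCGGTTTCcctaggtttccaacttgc
IFI6: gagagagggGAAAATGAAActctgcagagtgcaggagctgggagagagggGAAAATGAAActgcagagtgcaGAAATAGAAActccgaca
ISG15: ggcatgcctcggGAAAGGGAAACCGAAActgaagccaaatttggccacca
The fourth set shows 10 bases before and 15 bases after the RNA start, the latter in the 5′ UTR of the first exon, with capitals for the unbroken run of pyrimidines from the start. They belong to the ribosomal proteins RPS6 (chr9:19380222-19380246, minus strand), RPL12 (chr9:127451392-127451416, minus strand) and RPLP0 (chr12:120201097-120201121, minus strand), to the elongation factor EEF1A1 (chr6:73521018-73521042, minus strand), to the initiation factor EIF4B (chr12:53006446-53006470, plus strand) and to the ribosome assembly factor NOB1 (chr16:69754912-69754936, minus strand).
RPS6: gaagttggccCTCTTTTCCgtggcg
RPL12: cgatttccggCCTCTCggctttcgg
RPLP0: ggcgcgaggcCCTTCTCTCgccagg
EEF1A1: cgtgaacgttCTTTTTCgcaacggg
EIF4B: tcatccgggtCTTTTgcgttctctt
NOB1: gcgcgctcccCTCTCacgcagccaa

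The libraries held 13168749 to 18321114 assigned counts. In a principal component analysis of the mVenus, p16 and p16 with Torin2 libraries the groups stood apart, with 55% of the variance on the first component and 31.3% on the second. Levels are given in CPM, counts scaled to library size, and the 3 values of a group follow the replicate numbers. The CDKN2A gene, which encodes p16, had 0 counts in all 12 libraries, those of the p16 groups included, and the reason was not tested. The induction of p16 could thus not be checked from these files. All 10 epithelial markers were tested, with a summed level of 10097 to 10573 CPM in mVenus and 10962 to 11428 CPM in p16 with Torin2, and the basal keratin KRT5 was abundant. Of 12 leukocyte markers 5 were tested, with a summed level of 97.3 to 104 CPM in mVenus and 68.5 to 75 CPM in p16 with Torin2. CD3E and TYROBP had 0 counts in these 6 libraries. The 10 endothelial markers summed to 11.3 to 12.1 CPM against 10.4 to 13.0 CPM, with CLDN5 and EMCN at 0, and the 10 fibroblast markers to 62.7 to 68.0 against 88.3 to 94.8 CPM, of which FAP made up 47.5, 42.4 and 42.9 CPM in mVenus and 89.2, 86.1 and 82.4 CPM in p16 with Torin2. The cultures are of the MCF10-A line, and which cells these marker counts came from was not tested.

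After 5 days, 9769 genes differed between p16 with Torin2 and mVenus, 4529 of them higher and 5240 lower (edgeR's quasi-likelihood test, Benjamini-Hochberg adjusted p under 0.05 over all tested genes). These calls make up 31.2% and 36.1% of the 14504 tested genes, and counts of list members below are read against these shares. Counts given for p16 against mVenus are read against that comparison's shares, 30.9% higher and 32.8% lower among all tested genes. Of the called genes, 1092 were at least 2-fold higher and 1436 at least 2-fold lower. The median log2 fold change over all tested genes was -0.032. With scaling by total counts it was -0.099, so it depends on how the libraries were scaled. All levels and fold changes are thus relative, and amounts of RNA per cell were not measured. Values written as a log2 fold change below are p16 with Torin2 over mVenus, with the standard error after the sign ±, unless another comparison is named.

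Genes with the largest rises included keratins and regulators of stratified epithelium. KRT15, a keratin of basal cells, had 47.8, 48.9 and 54.2 CPM in mVenus and 785, 819 and 948 CPM in p16 with Torin2, a log2 fold change of 4.08 ± 0.066 (adjusted p = 1.32e-20). TP63, the transcription factor that maintains basal epithelium, went from 4.87, 5.7 and 4.96 to 83.1, 79.96 and 70.8 CPM (3.92 ± 0.088, adjusted p = 1.58e-18). SERPINB2, an inhibitor of plasminogen activators, had 7.91, 8.47 and 9.75 CPM in mVenus and 142, 135 and 135 CPM in p16 with Torin2 (3.98 ± 0.083). Genes for this group and for the falls below were picked by size among those whose libraries do not overlap, so their separation was set by the choice. The keratin KRT13 (5.34 ± 0.21), the cornified envelope crosslinker TGM1 (4.55 ± 0.53), the antimicrobial ribonuclease RNASE7 (4.12 ± 0.12) and the forkhead factor FOXQ1 (3.98 ± 0.21) were also among the 10 largest rises. The remaining ones, ONECUT3, TFPI2 and ZNF813, were near 0 in mVenus, with at most 0.292 CPM in any control library. Their log2 fold changes of 6.78, 6.34 and 6.00 reached 7.94 for ONECUT3 without mVenus replicate 3, 7.76 for TFPI2 without mVenus replicate 1 and 7.62 for ZNF813 without mVenus replicate 2.

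The largest falls were spread over genes of different roles. MCAM, a cell adhesion molecule of the immunoglobulin family, had 186, 197 and 182 CPM in mVenus against 3.39, 4.46 and 3.61 CPM in p16 with Torin2 (-5.62 ± 0.077, adjusted p = 1.29e-21). FADS2, a desaturase of polyunsaturated fatty acids, fell from 51.5, 53.8 and 54.5 to 2.61, 2.0 and 1.9 CPM (-4.61 ± 0.10, adjusted p = 1.58e-18). MYH14, a nonmuscle myosin heavy chain, had 7.13, 6.65 and 6.32 CPM in mVenus and 0 counts in the treated libraries, which is at least 103-fold lower when the treated group is set to 3 counts over its libraries. TLR2, a sensor of bacterial lipoproteins, had 260 counts over the mVenus libraries and 1 count in the treated group, a ratio of 234 with an exact 95% counting interval of 41.7 to 9288. The potassium channel gene KCNJ15 (-5.57 ± 0.30), the netrin receptor UNC5C (-4.97 ± 0.33), ARMCX3 (-4.89 ± 0.12), the adhesion receptor ADGRB2 (-4.65 ± 0.27) and EFR3B (-4.54 ± 0.25) fell as well. The value of EFR3B was -5.32 without p16 with Torin2 replicate 1.

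**Figure D1:**
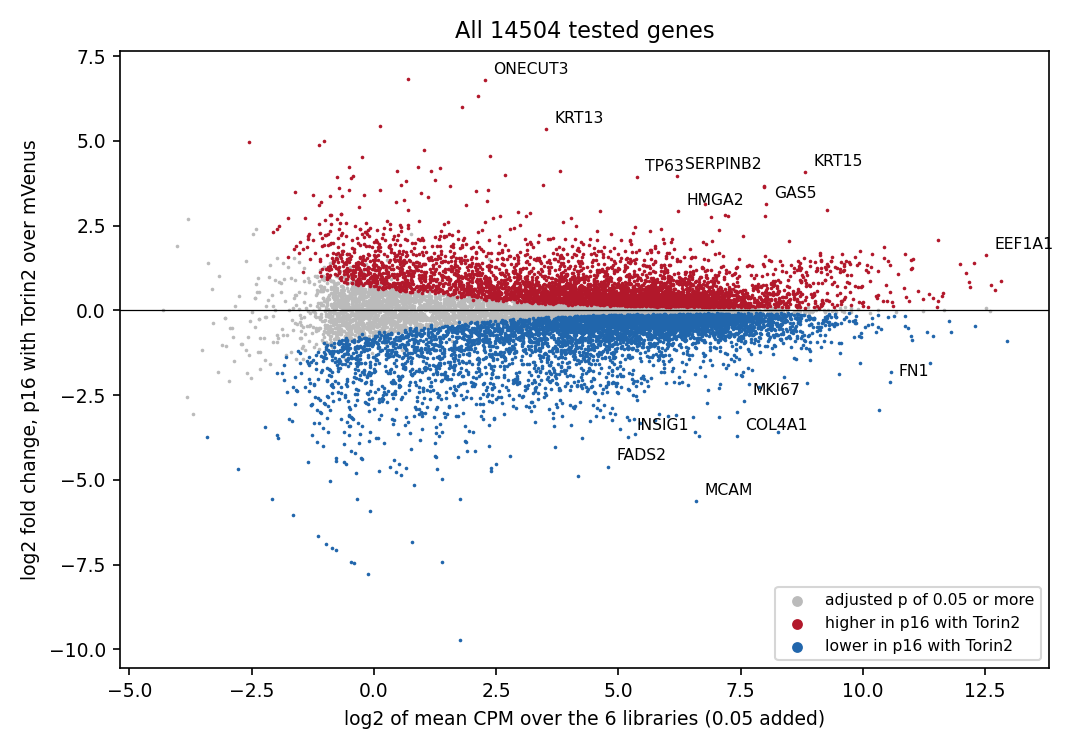
Each point is 1 of the 14504 tested genes, with the log2 of its mean CPM over the 6 libraries on the x axis and its log2 fold change, p16 with Torin2 over mVenus, on the y axis. Red and blue points are the 4529 higher and 5240 lower genes at an adjusted p under 0.05, and named genes such as KRT15 and MCAM lie far from 0.

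Genes of the cell cycle remained below the control. Of 59 tested genes of G2 phase and mitosis 58 were lower and 1 was higher in p16 with Torin2, with a median log2 fold change of -2.04 against -0.032 over all genes. The summed level of the list was 3413, 3359 and 3539.8 CPM in mVenus, 1168, 1126 and 1162 CPM in p16 with Torin2 and 673, 692 and 704 CPM in p16. MKI67, the proliferation antigen, had 335, 314 and 345 CPM in mVenus and 52.2, 51.6 and 50.9 CPM in p16 with Torin2, 6.42-fold lower (log2 -2.68 ± 0.046, adjusted p = 3.23e-20). In p16 without the inhibitor it had 10.1, 10.5 and 9.69 CPM, so the groups followed the order mVenus, p16 with Torin2, p16 without overlap. The largest fall of the list was that of MYBL2, a subunit of the complex that activates mitotic genes, from 73.9, 75.4 and 75.8 to 5.93, 5.82 and 6.29 CPM (-3.64 ± 0.086). The cyclin CCNB2 had 31, 29.7 and 34.7 CPM in mVenus and 9.05, 8.14 and 9.25 CPM in p16 with Torin2 (-1.85 ± 0.084). PLK1, a kinase of mitotic entry and exit, had 50.6, 52.3 and 50.8 CPM in mVenus, 18.6, 21.5 and 19.2 CPM in p16 and 12.2, 14.7 and 14.8 CPM in p16 with Torin2. Unlike most of the list it was lowest with Torin2, with a log2 difference to p16 of -0.51 ± 0.082 (adjusted p = 1.99e-05). The member that rose was CDC25B, a phosphatase that activates cyclin-dependent kinases, with 72.7, 75.9 and 73 CPM in mVenus and 140.2, 146 and 156 CPM with Torin2 (1.0 ± 0.05). In RNA of whole cultures, fewer cycling cells and less RNA per cell cannot be told apart.

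In the comparison of p16 with mVenus, 57 of these members were lower and 1 higher (32.8% and 30.9% of all genes), with a median of -3.15. With Torin2 against p16, 47 were higher and 5 lower (30.3% and 29% of all genes), with a median of 0.99. These comparisons share libraries with the main one, so their values are placed side by side and are no independent support. Promoters here are windows of equal length around the annotated RNA start, longer than the stretches printed above, and both strands were searched. The CHR element was present in 34 of 51 promoters of the list (66.7%). It was found in 9.79% of the 10044 promoters of tested genes and in 15.4% of the 27305 promoters of this length. Members with the element had a median of -1.95 (n = 32) and those without it of -2.04 (n = 17).

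DNA replication genes were lower as well. Of 57 tested members 51 were lower and 5 higher, with a median log2 fold change of -1.17, and the summed level was 2514, 2476 and 2557 CPM in mVenus and 1334, 1356 and 1359.8 CPM in p16 with Torin2. CDC6, which loads the helicase onto origins, had 66.8, 59.95 and 67.6 CPM in mVenus and 7.82, 7.05 and 7.02 CPM in p16 with Torin2 (-3.15 ± 0.086), and CLSPN, the mediator of the replication checkpoint, 45.5, 44.4 and 49.6 CPM in mVenus and 5.47, 4.91 and 5.25 CPM in p16 with Torin2 (-3.16 ± 0.096). MCM6 fell less, from 90.6, 95.7 and 94.2 to 37.5, 38.5 and 37.6 CPM (-1.30 ± 0.049). The members that rose furthest, ORC3 (0.45 ± 0.068) and ORC2 (0.40 ± 0.048), encode subunits of the origin recognition complex. E2F sites were found in 32 of 48 promoters of the list (66.7%), against 20.7% of promoters of tested genes and 13.1% of all promoters, and members with and without such a site had medians of -1.14 (n = 32) and -1.25 (n = 16).

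Among the regulators of G1, 19 of 31 tested members were lower and 6 higher. E2F1, an E2F factor that activates genes of S phase, had 23.9, 21.9 and 24 CPM in mVenus and 2.28, 2.26 and 1.97 CPM in p16 with Torin2 (-3.42 ± 0.13, adjusted p = 2.82e-15). CCND2, a D-type cyclin, rose from 61.1, 70.5 and 74.1 to 117, 115 and 115 CPM (0.76 ± 0.062). CDKN1A, which encodes the inhibitor p21, was lower with 715, 724 and 698 CPM in mVenus, 588, 587 and 535 CPM in p16 and 241, 274 and 263 CPM in p16 with Torin2. The groups did not overlap, and the fall from mVenus was 2.74-fold (log2 -1.46 ± 0.045, adjusted p = 1.62e-16).

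Structural genes of the nucleus were lower in 30 of 38 tested cases and higher in 5, with a median of -0.52. LMNB1, the lamin whose loss marks senescent cells, had 52, 51.5 and 59 CPM in mVenus, 4.62, 5.07 and 4.81 CPM in p16 and 15, 12.5 and 14.6 CPM in p16 with Torin2 (-1.95 ± 0.087, adjusted p = 6.89e-14). It was thus below the control in each treated library and above p16 (log2 difference 1.54 ± 0.13). The histone chaperone ASF1B (-3.38 ± 0.13) and the condensin subunit NCAPH (-2.72 ± 0.11) fell furthest in this list. HMGA2, a high mobility group protein that bends DNA, moved the other way. It had 16.7, 16.5 and 18.5 CPM in mVenus, 24, 23.9 and 28 CPM in p16 and 148, 129.5 and 118 CPM in p16 with Torin2, a 7.62-fold rise over mVenus (log2 2.93 ± 0.083, adjusted p = 4.88e-17). CBX3, a heterochromatin protein, rose by 0.32 ± 0.045 on the log2 scale.

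Repair genes followed in part. Homologous recombination, the repair of double-strand breaks from a sister copy, is used in S and G2 phase, and 26 of 38 tested genes of this pathway and of the Fanconi anaemia group were lower with 5 higher (median -0.67). EXO1, a nuclease of end resection, had 44.1, 39 and 46.3 CPM in mVenus and 7.62, 8.27 and 7.87 CPM in p16 with Torin2 (-2.45 ± 0.082). BRCA1 had 47.7, 46.5 and 48.6 CPM in mVenus, 11.3, 11.5 and 11 CPM in p16 and 21, 18.2 and 18.7 CPM in p16 with Torin2 (-1.31 ± 0.059), and BRCA2 fell by a similar amount (-1.58 ± 0.11). For these genes no treated library reached the control range. MRE11 (0.78 ± 0.054), the nuclease of the break-sensing complex, and FANCF (0.68 ± 0.090) rose. MRE11 had 27.4, 29 and 28.3 CPM in mVenus, 30.9, 31.2 and 30.8 CPM in p16 and 47.9, 50.03 and 47.6 CPM with Torin2. E2F sites were present in 20 of 36 promoters of this list (55.6%).

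The end joining and 53BP1 genes were lower in 12 and higher in 5 of 23 tested members. POLQ, the polymerase of microhomology-mediated joining, fell from 16.1, 15.1 and 15.4 to 4.17, 5.49 and 4.59 CPM (-1.71 ± 0.13), and PARP1, a sensor of DNA breaks, from 580.2, 576 and 569 to 317, 316 and 301 CPM (-0.88 ± 0.032). TP53BP1, which encodes 53BP1, differed little, with 78.6, 72.5 and 78.6 against 65.7, 67.6 and 68.4 CPM (-0.19 ± 0.048, adjusted p = 0.00165). Damage signalling genes were lower in 14 and higher in 7 of 31 cases. With total counts scaling, 4 in place of 7 were higher. H2AFX, the histone variant phosphorylated at breaks, fell from 127, 138 and 127 to 48.7, 55.8 and 51.3 CPM (-1.33 ± 0.053), whereas the kinase ATM rose from 82.3, 80.1 and 82.6 to 135, 124 and 125 CPM (0.65 ± 0.042, adjusted p = 3.20e-11). In p16 ATM had 78.3, 82.7 and 79.4 CPM, which overlapped the control, and all libraries with Torin2 lay above both groups.

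Targets of p53 were lower in 27 and higher in 4 of 37 tested members (median -0.57). In p16 against mVenus the same list had 15 higher and 15 lower members. The ligand KITLG fell from 16, 12.3 and 15.5 to 4.04, 3.68 and 4.0 CPM (-1.91 ± 0.12). The members that rose furthest were PERP, a desmosomal membrane protein, from 528, 522 and 554 to 1132, 1098 and 1096 CPM (1.05 ± 0.040), and the stress sensor GADD45A (0.87 ± 0.050).

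**Figure D2:**
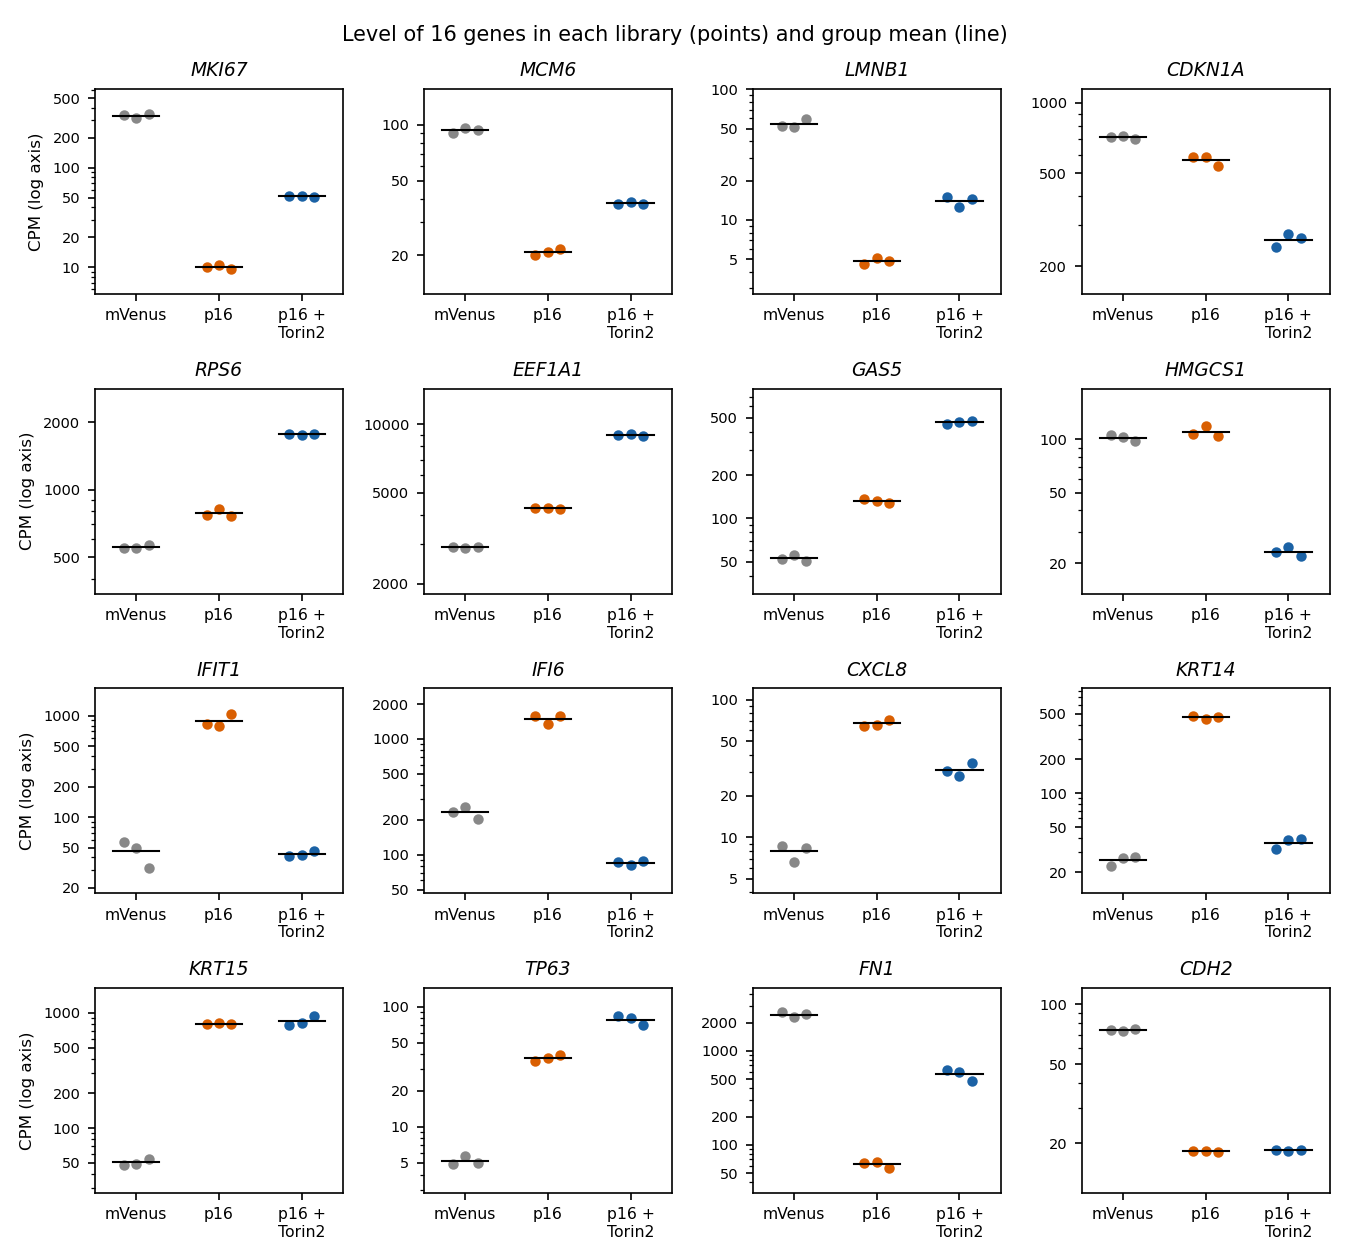
CPM on a log axis of 16 genes in each library of mVenus, p16 and p16 with Torin2 (points), with the mean of each group as a line. MKI67, MCM6 and LMNB1 with Torin2 lie between p16 and mVenus, CDKN1A and HMGCS1 lie below both, RPS6, EEF1A1 and GAS5 lie above both, and KRT15 and CDH2 lie near the p16 level.

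Genes of the ribosome were higher nearly throughout. Of 76 tested genes for cytosolic ribosomal proteins 74 were higher and 0 lower in p16 with Torin2 than in mVenus, with a median log2 fold change of 1.28. Their summed level was 26438, 27176 and 26567 CPM in mVenus, 37858, 37113 and 36454 CPM in p16 and 65529, 66629 and 66536 CPM in p16 with Torin2, with no overlap between groups. The p16 cells had 72 members above mVenus with a median of 0.45. RPS6, a target of the S6 kinases downstream of mTOR, had 547, 548 and 566 CPM in mVenus, 774, 821 and 767 CPM in p16 and 1778, 1753 and 1769 CPM in p16 with Torin2 (1.67 ± 0.038, adjusted p = 1.86e-18). RPL12, a protein of the ribosomal stalk base, had the largest rise of the list, from 449, 448 and 456 to 1529, 1522 and 1491 CPM (1.75 ± 0.035). The stalk protein RPLP0 had 671, 687 and 664 CPM in mVenus and 1590.0, 1659 and 1639 CPM in p16 with Torin2 (1.27 ± 0.036). Under the alternative scalings and tests tried the list's median stayed between 1.21 and 1.31. Ribosomal protein genes have many near-identical pseudogene copies, so single members with low counts are uncertain.

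Translation factors divided. Of 54 tested members 28 were higher and 10 lower (median 0.37). EEF1A1 had 2902, 2877 and 2896 CPM in mVenus and 8955, 9011 and 8830.2 CPM in p16 with Torin2 (1.63 ± 0.026, adjusted p = 1.32e-20), and EIF4B 217, 229 and 236 CPM in mVenus and 652, 670.0 and 665 CPM in p16 with Torin2 (1.54 ± 0.036). EIF4E2, a cap-binding protein that represses translation, fell from 74.6, 72.2 and 71.9 to 50.6, 49.3 and 47.2 CPM (-0.57 ± 0.048), and the initiation factor relative EIF4G2 from 1279.5, 1242 and 1301 to 941, 953 and 935 CPM (-0.43 ± 0.030). The members can also be described by their annotated RNA start. A start with C and 4 further pyrimidines, a feature looked at after the values were seen, was present at 14 of 45 translation factor genes with a RefSeq promoter (31.1%), at 43 of 64 ribosomal protein genes (67.2%), at 5.31% of tested genes with a promoter and at 4.04% of all 27305 promoters. All 13 tested members with this start were higher, with a median of 1.13. Of the 30 tested ones without it 7 were higher and 9 lower, with a median of 0.0090. Of the 13, BTF3, NACA, NAP1L1, NPM1 and TPT1 are not initiation or elongation factors. Members were chosen with earlier results of these data known, so the choice of list can shape this split. Among ribosomal protein genes the split was small, with medians of 1.28 (n = 40) with and 1.17 (n = 21) without this start. Over all tested genes with a promoter, those with the start had a median of 0.19 (n = 533) and the others of -0.067 (n = 9511). Outside the lists of ribosomal proteins, translation factors, ribosome biogenesis and small nucleolar RNA hosts, 205 of 468 genes with the start were higher and 144 lower (median 0.091). These are descriptions of annotated starts, and the starts used in these cells were not measured.

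**Figure D3:**
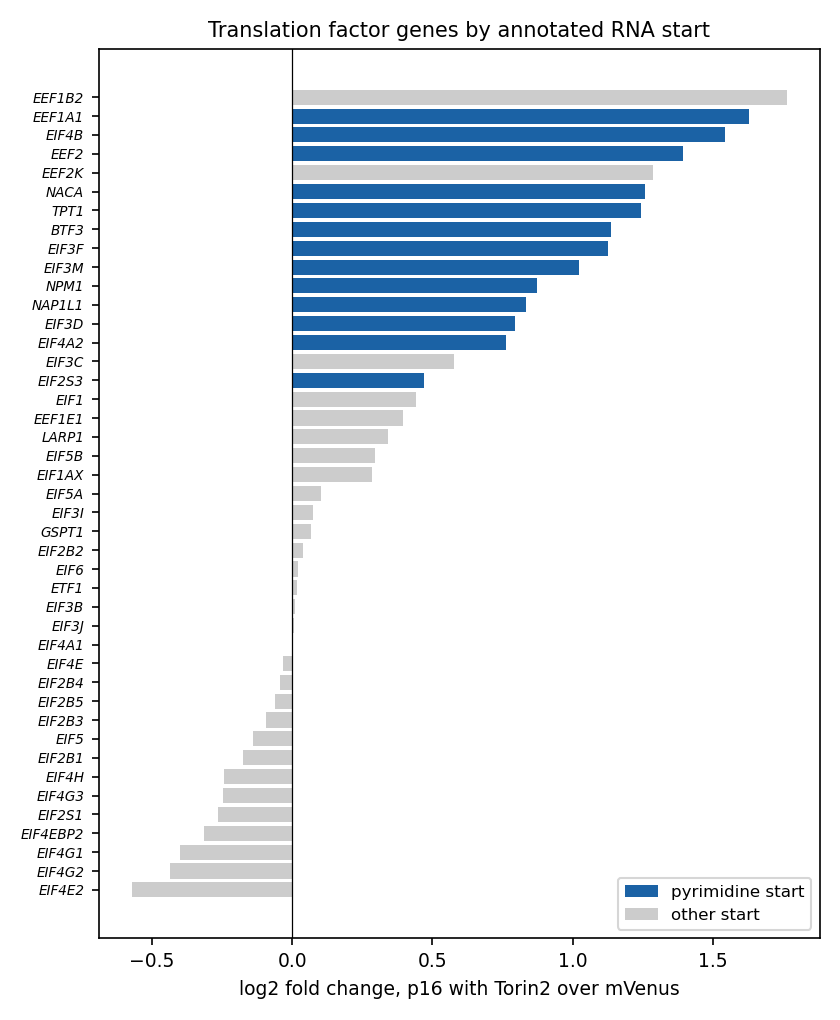
Bars give the log2 fold change, p16 with Torin2 over mVenus, of the 43 tested translation factor genes with a RefSeq promoter, ordered by value. Blue bars are the 13 genes whose annotated RNA start is C and 4 further pyrimidines, all above 0, and grey bars are the other 30, which spread on both sides of 0. Among the blue bars, BTF3, NACA, NAP1L1, NPM1 and TPT1 are list members other than initiation or elongation factors.

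Host genes of small nucleolar RNAs, spliced transcripts of which many are degraded when translated, rose as well. Of 22 tested members 16 were higher and 2 lower (median 0.91). For 6 of the 22, over 30% of exonic bases are shared with another gene, and the median was 0.645 when such genes were left out. The lower count was 1 without mVenus replicate 3 and without p16 with Torin2 replicate 3. GAS5, the best known of them, had 52.6, 56.2 and 50.6 CPM in mVenus, 136, 132 and 129 CPM in p16 and 455, 468 and 473 CPM in p16 with Torin2, an 8.78-fold rise over mVenus (log2 3.13 ± 0.041, adjusted p = 8.35e-22). Of the ribosome biogenesis genes 51 of 59 were higher and 2 lower (median 0.50). NOB1, the endonuclease that trims the small-subunit RNA, went from 30.2, 32.1 and 31.5 to 111, 109 and 107 CPM (1.80 ± 0.050), and POLR1E, a subunit of RNA polymerase I, from 22.4, 28.7 and 25.9 to 63, 63.5 and 67.7 CPM (1.34 ± 0.071).

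The mitochondrial messages were higher in 13 of 13 cases (median 0.57). In p16 against mVenus 13 of 13 were higher as well (median 0.68). The median of 0.57 was 0.44 without p16 with Torin2 replicate 3 and 0.657 without its replicate 2. MT-CYB, which encodes cytochrome b, had 2820.2, 2891 and 2759 CPM in mVenus and 5629, 5496 and 7153 CPM in p16 with Torin2 (1.11 ± 0.066), and the third treated library was the highest. Nuclear genes of the respiratory chain were higher in 38 and lower in 11 of 71 cases, for example ATP5MC2 at 1.06 ± 0.044 and NDUFS5 at -0.46 ± 0.043. Proteasome subunits were lower in 20 of 36 cases and higher in 1, PSMD4 (0.23 ± 0.036), with PSMD2 at -1.10 ± 0.040 and PSME4 at -0.70 ± 0.042. The count of subunits called higher was 3 without mVenus replicate 1, 2 without p16 with Torin2 replicate 3 and 6 in a fit of only the libraries compared.

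Interferon-stimulated genes, which were high in p16, were mostly at or below the control with Torin2. Of 53 tested members 33 were lower than in mVenus, 8 higher and 12 not called, with a median of -0.58. In p16 against mVenus 48 were higher and 3 lower (median 1.55). The summed level of the list was 4322, 4412 and 3926 CPM in mVenus, 14089, 13022 and 15591 CPM in p16 and 3489.7, 3439 and 3598 CPM in p16 with Torin2. IFIT1, which binds foreign RNA ends, had 57.3, 49.2 and 31.8 CPM in mVenus, 838, 788 and 1046 CPM in p16 and 41.2, 42 and 45.8 CPM in p16 with Torin2. The treated libraries lay within the control range, and the log2 fold change was -0.098 ± 0.16 with a 95% interval of -0.42 to 0.23 (adjusted p = 0.594). Without mVenus replicate 3, the lowest control, it was -0.32 with an adjusted p of 0.0271. Without mVenus replicate 1, the highest control, it was 0.112. IFI6, an antiviral membrane protein, went below the control, with 235, 257 and 203 CPM in mVenus and 86.8, 81.1 and 87.7 CPM in p16 with Torin2 (-1.44 ± 0.072, adjusted p = 3.92e-13). The ubiquitin-like ISG15 had 61, 74.6 and 47.9 CPM in mVenus and 24.1, 24.7 and 27.5 CPM in p16 with Torin2 (-1.25 ± 0.13), and its control libraries varied more than the treated ones.

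MX1 (-2.78 ± 0.23) and the guanylate-binding protein GBP2 (-2.41 ± 0.080) fell furthest among members of at least 5 CPM. Both were also lower in p16 than in mVenus, with log2 fold changes of -1.97 ± 0.21 and -0.37 ± 0.063. The RNA sensor IFIH1 had 57.1, 59.9 and 49 CPM in mVenus and 83.8, 84.4 and 86 CPM in p16 with Torin2 (0.62 ± 0.083), and the exonuclease ISG20 rose too (1.20 ± 0.13). The response element was found in 30 of 47 promoters of the list (63.8%), against 2.75% of promoters of tested genes and 3.65% of all promoters. Tested members with it had a median of -0.58 (n = 27) and those without it of -0.64 (n = 14).

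The secreted factors of senescence did not move as a block. Of 48 tested members 26 were lower and 13 higher than in mVenus (median -0.50). CXCL8, a neutrophil chemokine, had 8.7, 6.65 and 8.39 CPM in mVenus, 64.9, 65.4 and 71.7 CPM in p16 and 30.2, 28.1 and 34.5 CPM in p16 with Torin2. The treated libraries were above the control (1.95 ± 0.11, adjusted p = 2.84e-12) and below p16 (-1.12 ± 0.081). IL6 had 2 counts over the mVenus libraries and 0 with Torin2 and was not tested. The matrix protein CTGF fell from 123, 117 and 108 to 14.9, 13.2 and 11.7 CPM (-3.13 ± 0.079). NF-kappaB subunits, feedback genes and targets were lower in 18 and higher in 4 of 26 cases, with CD83 at -2.00 ± 0.17 and the inhibitor TNFAIP3 at 0.50 ± 0.078. CXCL8 and TLR2, given above, also belong to this list and were its largest rise and largest fall.

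Epithelial genes lay above, near or below the control, depending on the gene. Basal mammary genes were higher in 21 and lower in 5 of 28 cases (median 0.69), led by KRT15 and TP63. KRT14, the keratin partner of KRT5, had 22.8, 26.8 and 27.2 CPM in mVenus, 483, 450.0 and 467 CPM in p16 and 31.9, 38.2 and 39 CPM in p16 with Torin2. Its rise over mVenus of 0.51 ± 0.083 (adjusted p = 1.72e-05) was small beside 4.19 ± 0.070 in p16. KRT5 had 1246, 1269 and 1285 CPM in mVenus, 4559, 4266 and 4379 CPM in p16 and 1088, 1074 and 1095 CPM in p16 with Torin2 and was slightly below the control with Torin2 (-0.22 ± 0.031). KRT15, in contrast, had 796, 813 and 800.2 CPM in p16, and its log2 difference between p16 with Torin2 and p16 was 0.083 ± 0.054 (95% interval -0.029 to 0.20).

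Keratins and genes of the cornified envelope had 17 higher and 10 lower of 37 members (median 0.12), against 32 and 2 in p16 (median 1.92). With Torin2 the share called lower was below the 36.1% of all genes. The median of 0.12 was 0.056 without mVenus replicate 1, 0.20 without mVenus replicate 3, 0.069 without p16 with Torin2 replicate 1 or 2, 0.079 without its replicate 3, 0.051 with total counts scaling and 0.044 with DESeq2. S100A8, a subunit of calprotectin, had 5.92, 6.72 and 6.92 CPM in mVenus, 72.9, 71.5 and 65.9 CPM in p16 and 1.11, 1.36 and 1.97 CPM in p16 with Torin2, so it was above the control in p16 and below it with Torin2 (-2.13 ± 0.16, adjusted p = 3.24e-10). LYPD3 was lower with Torin2 (-2.73 ± 0.15). Of 20 luminal genes 10 were higher and 5 lower, the latter below the 36.1% share of all genes. The tight junction protein CLDN4 rose from 38.4, 44.5 and 46.9 to 198, 238 and 235 CPM (2.37 ± 0.078) and the simple keratin KRT8 fell from 972, 1048 and 948 to 472, 516 and 531 CPM (-0.97 ± 0.047). The number of luminal genes called lower was 3 without mVenus replicate 2.

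Mesenchymal and matrix genes stayed low. Of 38 tested members 29 were lower and 4 higher (median -2.01), and the summed level was 13532, 12912 and 12714 CPM in mVenus, 1591, 1484 and 1623 CPM in p16 and 3859, 3751 and 3396 CPM in p16 with Torin2. FN1, which encodes fibronectin, had 2584, 2280.3 and 2457 CPM in mVenus, 63.7, 65.4 and 55.9 CPM in p16 and 623, 592 and 477 CPM in p16 with Torin2. It was 4.33-fold below mVenus (log2 -2.11 ± 0.085, adjusted p = 1.15e-14) and 9.14-fold above p16. The basement membrane collagen COL4A1 fell from 327, 325 and 309 to 26.1, 24.4 and 23.1 CPM (-3.71 ± 0.060) and COL6A3 by a like amount (-3.76 ± 0.13). CDH2, N-cadherin, had 74.3, 73.3 and 74.9 CPM in mVenus, 18.2, 18.2 and 18.2 CPM in p16 and 18.5, 18.2 and 18.4 CPM in p16 with Torin2. Its difference between the p16 groups was 0.016 ± 0.059 (95% interval -0.11 to 0.14). The protease FAP rose (0.95 ± 0.060), as did the collagen COL5A2 (0.34 ± 0.080).

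**Figure D4:**
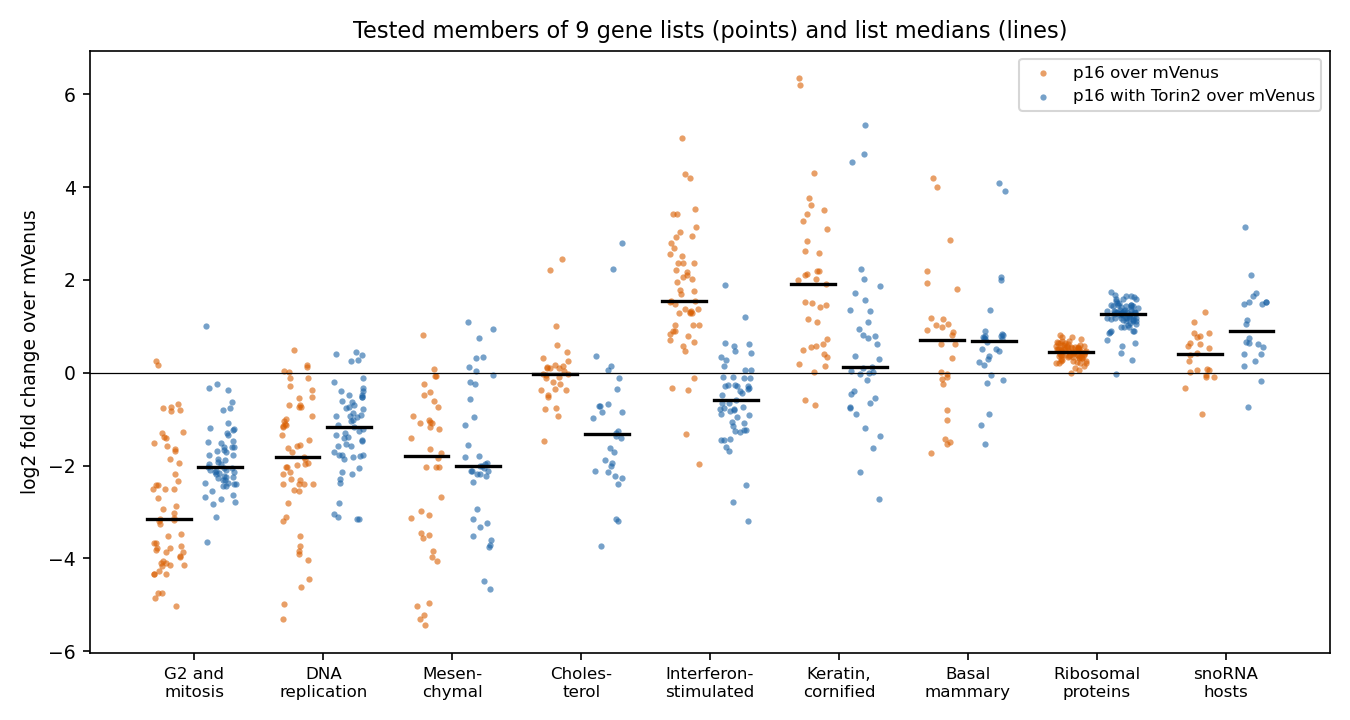
Points are the log2 fold changes over mVenus of the tested members of 9 gene lists, in orange for p16 and in blue for p16 with Torin2, and lines are list medians. The interferon-stimulated list has medians of 1.55 and -0.58, the cholesterol list -0.033 and -1.33, and the ribosomal protein list 0.45 and 1.28; the comparisons share the mVenus libraries.

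Genes of cholesterol synthesis were below the control with Torin2. Of 30 tested genes of synthesis, uptake and SREBP control 24 were lower and 2 higher (median -1.33). In p16 against mVenus 9 were higher and 11 lower (median -0.033), near the 30.9% and 32.8% of all genes. The summed level was 4301, 4254 and 4199 CPM in mVenus, 4342, 4350.3 and 4199 CPM in p16 and 1542, 1554 and 1559 CPM in p16 with Torin2. HMGCS1, which makes the precursor of mevalonate, had 106, 103 and 97.6 CPM in mVenus, 107, 119 and 104 CPM in p16 and 23.1, 24.6 and 22 CPM in p16 with Torin2 (-2.14 ± 0.060, adjusted p = 4.65e-17). The p16 and mVenus libraries overlapped, and all treated libraries lay below both. DHCR7, the last enzyme of the pathway, fell from 167, 174 and 156 to 18.4, 18.1 and 19.3 CPM (-3.15 ± 0.058). INSIG1, which retains the SREBP complex in the endoplasmic reticulum and is itself an SREBP target, fell furthest, from 67.5, 65.5 and 71.3 to 4.56, 4.98 and 5.9 CPM (-3.73 ± 0.082, adjusted p = 1.26e-18). MVD was lower too (-2.39 ± 0.069). The members that rose were the sterol exporter ABCG1 (2.80 ± 0.21) and INSIG2 (0.36 ± 0.076).

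Fatty acid genes were lower in 17 and higher in 4 of 26 cases (median -0.59, or -0.38 with no low-count filter). The desaturase SCD had 328, 327 and 332 CPM in mVenus, 633, 676 and 647 CPM in p16 and 98.6, 94.2 and 96.8 CPM in p16 with Torin2 (-1.77 ± 0.040). FADS1, next to FADS2 in function, fell to 5.93, 7.05 and 5.7 CPM from 50.5, 50.7 and 51.4 CPM (-3.03 ± 0.084), and in p16 it already had 4.8, 5.66 and 5.35 CPM. FADS2 in p16 had 36.9, 32.4 and 31.5 CPM, far above its level with Torin2. SCD5 rose (0.33 ± 0.037). The number of members called higher was 2 without mVenus replicate 1.

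Lysosomal genes were lower in 37 and higher in 15 of 62 cases (median -0.24), against 17 and 35 in p16. GLB1, the lysosomal beta-galactosidase used to stain senescent cells, had 77.8, 77 and 78.3 CPM in mVenus, 102, 103 and 92.4 CPM in p16 and 55.4, 57.1 and 59.5 CPM in p16 with Torin2. Thus it was above the control in p16 and below it with Torin2 (-0.44 ± 0.049, adjusted p = 9.89e-08). The cathepsin CTSS (-3.03 ± 0.21) and the sulfatase ARSB (-1.50 ± 0.072) fell furthest, and CTSV (0.59 ± 0.11) and CTSH (0.57 ± 0.063) rose. Autophagy genes and MiT/TFE factors were lower in 20 and higher in 11 of 42 cases, with MAP1LC3A at -2.20 ± 0.14 and ATG14 at 0.72 ± 0.075. With total counts scaling 7 in place of 11 were higher.

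Genes of the mTOR pathway itself were higher in 22 and lower in 16 of 52 cases, the latter below the 36.1% share of all genes. MTOR had 175, 183 and 183 CPM in mVenus and 155, 162 and 152 CPM in p16 with Torin2 (-0.21 ± 0.044). The complex 1 subunit RPTOR was lower (-0.25 ± 0.050), and the complex 2 subunit RICTOR higher, with 66.1, 52.2 and 59.9 CPM in mVenus and 132, 127 and 119 CPM in p16 with Torin2 (1.08 ± 0.072, adjusted p = 4.70e-11). IRS2, the adaptor of the insulin receptor and a FOXO-responsive gene, rose from 38.4, 41.3 and 38.5 to 135, 142 and 136 CPM (1.81 ± 0.046). The sestrins SESN3 (-1.97 ± 0.10) and SESN1 (-1.35 ± 0.084), inhibitors of mTOR complex 1, fell. Lower calls made up 12 of 35 FOXO-responsive genes, near the 36.1% share of all genes, and 16 of these genes were higher. Of these TXNIP, an inhibitor of glucose uptake, had 583, 573 and 617 CPM in mVenus, 1537, 1529.5 and 1570.3 CPM in p16 and 2133, 2174 and 2187 CPM with Torin2 (1.87 ± 0.032), and the death ligand TNFSF10 fell (-1.55 ± 0.20).

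Other metabolic lists were mixed. The ATF4 programme had 19 higher and 21 lower of 43 members, with SLC7A11 at 0.83 ± 0.097 and PHGDH at -2.61 ± 0.16. Glycolysis and hypoxia genes had 12 higher and 20 lower of 40, with CA12 at 2.08 ± 0.077, HK2 at 1.33 ± 0.054 and P4HA2 at -1.21 ± 0.048. The NRF2 list had 10 higher and 16 lower of 32, with GSTP1 at 0.85 ± 0.034, HMOX1 at -1.88 ± 0.19 and AKR1C3 at -1.29 ± 0.086. The shares of members called higher in the last 2 lists lay near the background of 31.2%, and those called lower lay above that of 36.1%.

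**Figure D5:**
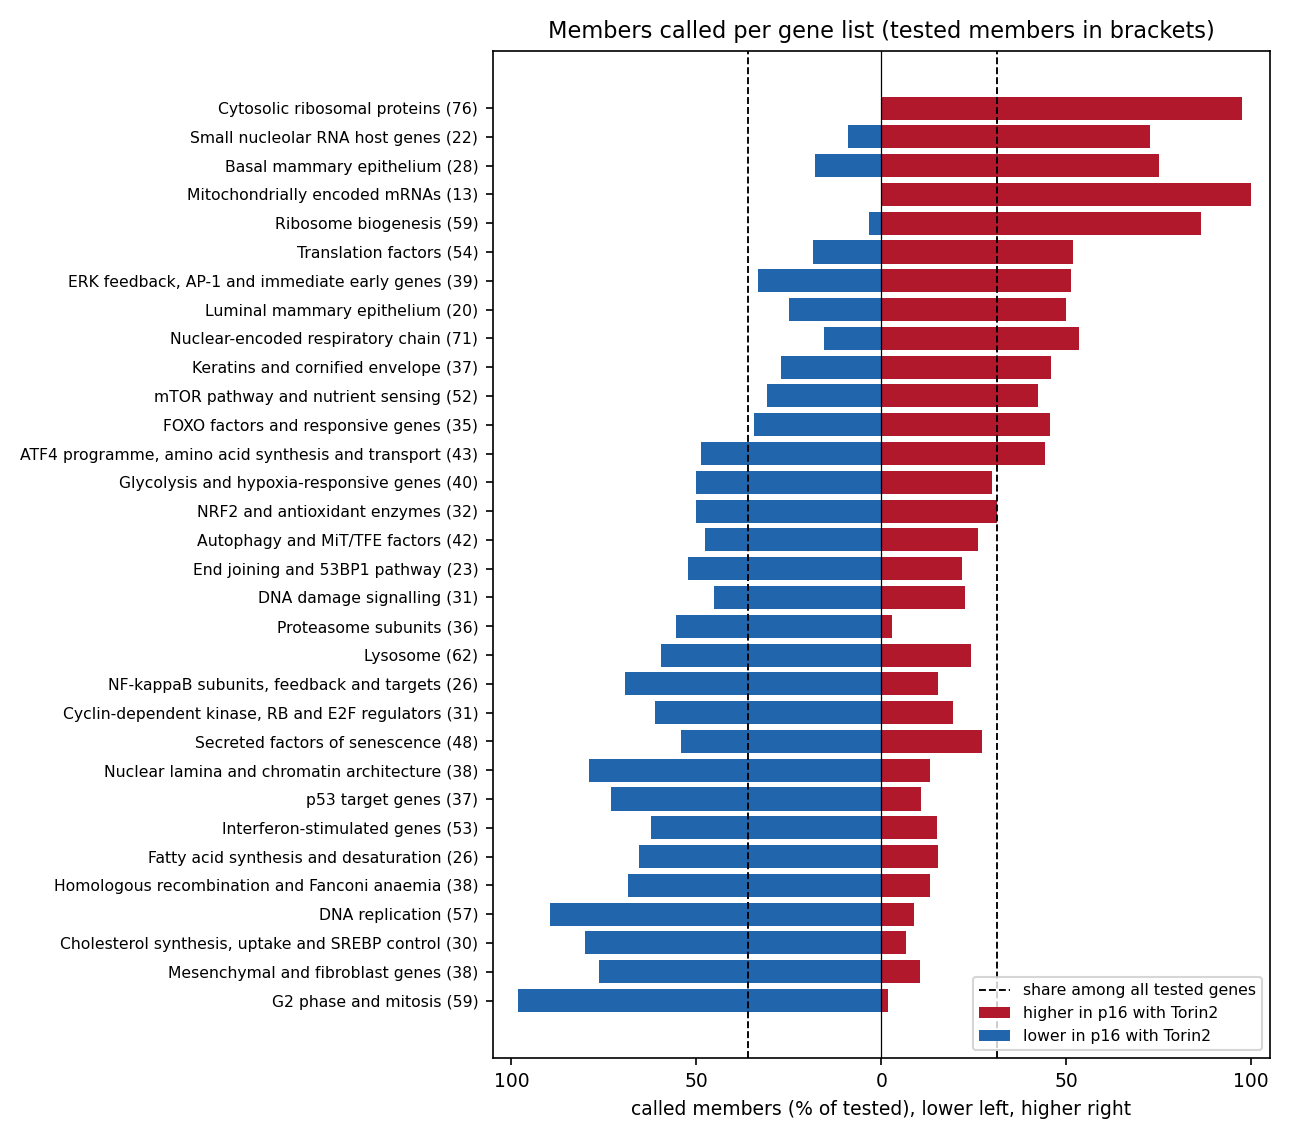
Bars give the percentage of tested members of each gene list called higher (red, to the right) or lower (blue, to the left) in p16 with Torin2 than in mVenus, with lists ordered by median log2 fold change and tested members in brackets. Dashed lines mark the shares among all tested genes, 31.2% higher and 36.1% lower; the ribosomal protein list reaches 74 of 76 higher and the G2 and mitosis list 58 of 59 lower.

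Named genes are finally given by how their level with Torin2 related to that in p16, as descriptions. Genes were called held when they differed from mVenus with Torin2 and the 95% interval of p16 with Torin2 against p16 lay within -0.3 to 0.3 on the log2 scale. The largest held rises included KRT15, CLDN4 and SRPX2, a secreted sushi repeat protein with 23.2, 22.6 and 22.4 CPM in mVenus, 78.5, 70.6 and 73.1 CPM in p16 and 88.4, 84.4 and 81.2 CPM with Torin2. The largest held falls included CDH2, the membrane skeleton protein EPB41L2 (-2.08 ± 0.068), the phospholipase PLCB4 (-1.94 ± 0.065) and TMEM98 (-1.87 ± 0.090). MYH14 had 0 counts in both p16 groups, so its level there could not be compared.

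Some genes moved against mVenus in opposite directions in the p16 groups. BBOX1, the last enzyme of carnitine synthesis, had 3.3, 3.07 and 3.49 CPM in mVenus, 15, 18.2 and 14.3 CPM in p16 and 0.391, 0.388 and 0.393 CPM with Torin2 (-3.05 ± 0.25). CYP4F3, a leukotriene hydroxylase, had 1.1, 1.53 and 1.14 CPM in mVenus, 6.3, 4.94 and 4.81 CPM in p16 and 0.326, 0.259 and 0.131 CPM in p16 with Torin2. The forkhead factor FOXL1 and the B cell lectin CD22 did the reverse at low levels, FOXL1 with 0.576, 0.876 and 0.654 CPM in mVenus, 0.0624, 0.263 and 0.542 CPM in p16 and 2.54, 2.65 and 3.08 CPM with Torin2. CD22 had 1.1, 0.584 and 1.14 CPM in mVenus, 0.0624, 0.132 and 0.0677 CPM in p16 and 3.39, 2.59 and 1.84 CPM in p16 with Torin2.

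Others changed with Torin2 while p16 stayed within 0.3 of mVenus on the log2 scale. The amino acid transporter SLC6A15 had 24.1, 24.4 and 25.6 CPM in mVenus, 21.2, 23.4 and 23 CPM in p16 and 104, 94 and 95.7 CPM with Torin2 (1.99 ± 0.058, adjusted p = 8.03e-17). The retinol carrier receptor STRA6 (1.55 ± 0.066), CPNE7 (1.40 ± 0.075) and the ciliary dynein DYNC2H1 (1.34 ± 0.063) rose too. TP53INP2, a regulator of autophagy, had 70.6, 73.4 and 71.6 CPM in mVenus, 82.2, 82.5 and 77.5 CPM in p16 and 10.3, 12.6 and 11.8 CPM in p16 with Torin2 (-2.63 ± 0.063). The complement protease C1S (-2.55 ± 0.14), the phosphatidylserine binder MFGE8 (-2.19 ± 0.051), MVD and HMGCS1 fell with it.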

How the data were processed

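Messenger RNA of 12 MCF10-A cultures was sequenced, and 6 libraries form the main comparison. Per the labels' protocols, messages were selected with oligo-dT beads and libraries made with a kit that keeps strand. The authors deposited read counts per gene for each library. Per the file headers, counts were made with featureCounts 1.6.3 on exons of GENCODE 29. No option was set for strand or multimapping reads, so reads on bases shared by genes could not be assigned by strand. The submitters' processing notes list FastQC 0.11.3, HISAT2, Subread and DESeq2, with GRCh38.p7 as the build. The authors' own comparison tables were not used.

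Genes kept by filterByExpr (14504) were scaled by TMM and fitted in edgeR 4.0.16 (R 4.3.3) over all 12 libraries with 1 coefficient per group (8 residual degrees of freedom, common biological coefficient of variation 3.94%). Groups were compared with the quasi-likelihood test, two-sided, with Benjamini-Hochberg adjustment over all tested genes at 0.05. CPM are counts scaled by TMM library size, and standard errors are the log2 fold change over the root of the test's F. For a gene at 0, the floor was set to 3 counts per group, which is 0.0587 CPM in mVenus and 0.0651 CPM in p16 with Torin2, and it covers counting error only, as do the counting intervals. The fit was first run on simulated counts in which a small part of the genes was changed. Far more genes were called in the real comparison, so that run cannot show how the scaling behaves there.

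Of 1452 entries in 36 gene lists 1447 matched the files. Members and lists were chosen with earlier results of these data known. Named genes are 11 fixed ones, the 10 largest rises and falls with at least 5 CPM and no overlap of libraries, up to 2 highest and 2 lowest called members per list, and the held, opposite and Torin2-only genes, of which the text gives those it needs. Chosen after their values were seen were CCNB2, PLK1, MCM6, BRCA1, BRCA2, TP53BP1, MTOR, RPTOR, RPLP0, DHCR7, SCD, IFI6, ISG15, DUSP6 and SPRY4, and the search for pyrimidine starts. Same-numbered libraries of the main comparison had deviations correlated at 0.0348, 0.0508 and 0.0066, so the numbers were not treated as pairs. Alternatives were other scalings, no low-count filter, DESeq2 1.42.0, only the libraries compared, a replicate block, no genes with over 30% shared exonic bases and each library left out. Figures were drawn with matplotlib 3.10.9 in Python 3.11.15.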

Additional observations from a re-analysis of the deposited data

How the results depend on the processing

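Under every alternative run, the counts of genes called in p16 with Torin2 against mVenus, in p16 against mVenus and in p16 with Torin2 against p16 stayed within 1.5 times the main count. For the main comparison DESeq2's Wald test called 8885 genes, the replicate block 9651, total counts scaling 9817 and leaving out single libraries 9175 to 9416, beside 9769. Total counts scaling gave the fewest higher (3922) and most lower calls (5895). Lower calls numbered 5132 with DESeq2 size factors and 4992 with upper quartile scaling. Without pairing in the labels' numbers, the block changed no call of a named gene. The counts that moved by more than 1.5 times were small ones. DNA damage signalling had 4 higher members with total counts scaling (main 7), autophagy 7 (main 11) and fatty acid genes 2 (main 4), the last also with DESeq2 and without mVenus replicate 1. Luminal genes had 3 lower members (main 5) with upper quartile scaling, with no low-count filter and with only the libraries compared, and 3 to 5 with single libraries left out. Proteasome subunits had 3 higher members (main 1) with no filter, 6 with only the libraries compared and 1 to 3 with single libraries left out. Small nucleolar RNA hosts had 1 lower member (main 2) with no filter and with DESeq2, and 1 to 2 with single libraries left out. The cause was not tested. Of the named genes tested, IFIT1 alone changed its call, and no called value reversed its sign. The value of IFIT1 ran from -0.317 without mVenus replicate 3 to 0.112 without mVenus replicate 1.

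Genes of few counts are limited by depth, as in ONECUT3, TFPI2, ZNF813, TLR2 and MYH14. For MYH14 the counts give a bound and for TLR2 a ratio on 1 treated count, so fitted values are not given for them. ATG9A, TIGAR, SNHG7 and other genes with over 30% of their exonic bases shared with a neighbour were not named in the results.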

Other observations

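Feedback genes of the ERK pathway, AP-1 and immediate early genes were higher in 20 and lower in 13 of 39 tested members (median 0.30). The share called lower lay near the 36.1% of all genes. The median was 0.055 when genes with over 30% of exonic sequence shared were left out and 0.19 with DESeq2. SPRY4, an inhibitor of receptor signalling, had 89.9, 83.2 and 84.6 CPM in mVenus, 129, 124 and 119 CPM in p16 and 175, 185 and 171 CPM in p16 with Torin2 (1.04 ± 0.044, edgeR adjusted p = 2.80e-14), and its relative SPRY1 had 1.78, 1.1 and 1.25 CPM in mVenus, 12.9, 13 and 12.1 CPM in p16 and 9.05, 9.5 and 9.44 CPM in p16 with Torin2. DUSP6, the phosphatase of ERK, had 25.5, 19.7 and 24.8 CPM in mVenus and 87, 82.9 and 84.3 CPM with Torin2 (1.84 ± 0.070), though 40.5% of its exonic bases are shared with another gene. The EGF receptor ligands AREG (-1.41 ± 0.055) and EREG (-1.06 ± 0.16) moved the other way, AREG from 597, 580.3 and 513 to 225, 216 and 197 CPM.

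Short genes had higher values than long ones. The median log2 fold change, p16 with Torin2 over mVenus, was 0.31 over the 979 tested genes with under 1 kb of exonic sequence, 0.029 over 1365 genes of 1 to 2 kb and -0.045 over 2875 genes of more than 8 kb. Leaving out ribosomal protein genes took few genes from the shortest class (n = 977, median 0.30) and so could hardly move its median. In p16 against mVenus the shortest class had a median of 0.27 and the longest -0.097. By annotated type, 147 of 407 tested lincRNA genes were higher and 57 lower (median 0.30), and 312 of 840 processed pseudogenes were higher and 99 lower (median 0.24), beside 3766 and 4902 of 12143 protein-coding genes (median -0.063). The ribosomal protein genes took 2.75% to 2.83% of counts in mVenus, 3.52% to 3.66% in p16 and 6.56% to 6.61% in p16 with Torin2.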
